A study of Mus musculus with 42 samples.

Results

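The fast skeletal muscle sarcomere genes examined here are 10 genes of the fast-twitch fibre: the myosin heavy chains *Myh1*, *Myh2* and *Myh4*, the myosin light chain *Mylpf*, the troponins *Tnnt3*, *Tnni2* and *Tnnc2*, the Z-disc protein *Actn3*, the calcium pump *Atp2a1* and the creatine kinase *Ckm*. They were taken by gene symbol from the 26653 genes of the deposited table, and all 10 were found. The list was chosen by values measured in these same samples, namely the opposite directions of these genes in heart and eyes between the genotypes, so the changes below are a description and carry no test.

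The study sequenced RNA of 6 adult tissues (heart, eyes, prostate, spleen, testes and liver) and of cultured embryonic fibroblasts (MEFs), from wild-type (WT) and *Tug1*-/- mice, in 42 samples, 22 of them WT and 20 knockout. Heart, eyes, spleen, liver and MEFs had 3 WT and 3 knockout samples each, testes 4 and 3, and prostate 3 and 2. All samples came from males on a C57BL/6J background. WT mice carried normal *Tug1* alleles, and knockout mice were homozygous for *Tug1tm1.1Vlcg*, in which a *lacZ* reporter stands in place of the *Tug1* lncRNA while its promoter and first exon remain. The neomycin cassette had been removed by crossing to a CMV-cre strain and the cre transgene then bred out, so that neither genotype carries them. The age of the adult mice is not given in the sources used here, and the MEFs were primary cultures at passage 2. The question was how loss of the *Tug1* locus changes gene expression in each tissue.

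The authors combined the samples of a genotype, so there is 1 value per genotype and tissue and no value per mouse. Levels are pooled values in FPKM, fragments scaled by transcript length and library size, which allow genes to be compared per length. A change is log2((KO + 0.1)/(WT + 0.1)) of these values, and a gene is counted as higher or lower past 1.5-fold on that scale. Where a ratio or a number of times lower is given, it is of the FPKM values themselves, without the added 0.1. With no spread between mice, no difference can be set against replicate error, and whether a difference is shared by all mice of a group or comes from 1 of them cannot be read. The background of a count is the share of all genes with at least 1 FPKM in either genotype that passed the same limit. *Tug1* itself was between 11.2 and 27.7 FPKM in the 7 WT groups and between 0.00753 and 0.402 FPKM in the 7 knockout groups. Tissue labels were checked by marker genes: *Tnnt2* was at 6978 FPKM in WT heart and at most 6.02 FPKM in any other WT tissue, the lens crystallin *Cryaa* was at 5281 FPKM in WT eyes and at most 0.400 FPKM elsewhere, and the other markers reported here were highest in their own tissue except *Alb*, which was listed at 0 in liver of both genotypes.

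Skeletal muscle fibres contract when calcium released inside the cell binds troponin C on the thin filament, which frees actin for the motor heads of myosin on the thick filament. Fast fibres use their own set of paralogs for this machinery, while the heart uses a cardiac set and the slow troponin C. The extraocular muscles, which move the eye, are rich in fast fibres.

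*Myh2*, *Myh1* and *Myh4* lie next to each other on the plus strand of chromosome 11, at chr11:67171027-67197517, chr11:67200052-67224575 and chr11:67238029-67260446 in GENCODE vM21 on mm10 (GRCm38), the build of the submitters' processing notes. RefSeq promoter windows were found for 7 of the 10 members on GRCm38.p6. They are the 250 bases before a gene's RefSeq start, cut short where they reach an annotated exon of the gene. For some genes the RefSeq start differs from the outermost GENCODE start, and the *Ckm* and *Mylpf* windows lie inside the GENCODE span of their gene. The 3 myosin windows are shown because the genes sit in 1 cluster and moved together. Capitals mark a run of 20 bases that all 3 share, and in *Myh4* also the E-box CAGCTG, the motif of muscle regulatory factors.
Myh1: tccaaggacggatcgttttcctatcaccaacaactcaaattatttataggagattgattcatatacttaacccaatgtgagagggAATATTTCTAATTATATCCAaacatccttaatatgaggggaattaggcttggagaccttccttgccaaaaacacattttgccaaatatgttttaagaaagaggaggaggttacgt
Myh2: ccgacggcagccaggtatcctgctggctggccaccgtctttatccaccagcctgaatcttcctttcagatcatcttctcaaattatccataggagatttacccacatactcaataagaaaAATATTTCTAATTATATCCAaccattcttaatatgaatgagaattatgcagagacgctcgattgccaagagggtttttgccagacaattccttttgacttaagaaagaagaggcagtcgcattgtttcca
Myh4: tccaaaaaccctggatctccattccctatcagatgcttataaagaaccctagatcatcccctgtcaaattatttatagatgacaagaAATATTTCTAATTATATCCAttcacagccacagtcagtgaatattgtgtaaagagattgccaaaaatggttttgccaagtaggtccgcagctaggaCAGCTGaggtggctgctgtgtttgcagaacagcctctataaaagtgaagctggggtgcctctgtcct
These are the plus strand of chr11:67199852-67200051, chr11:67170777-67171026 and chr11:67237562-67237811. The shared run begins 115 bases before the end of the window in *Myh1*, 130 in *Myh2* and 163 in *Myh4*. Among 32851 RefSeq mouse promoters of the same design it was found in 3, those of these genes. The *Ckm* window is shown beside them because *Ckm* was the member with the smallest log2 change in heart, with its CAGCTG E-box in capitals.
Ckm: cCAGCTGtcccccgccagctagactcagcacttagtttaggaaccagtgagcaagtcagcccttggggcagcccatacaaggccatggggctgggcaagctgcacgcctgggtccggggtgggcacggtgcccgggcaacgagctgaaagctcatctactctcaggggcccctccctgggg
It is the plus strand of chr7:19410844-19411024. With both strands searched, CAGCTG was found for 4 of 7 members (*Atp2a1*, *Ckm*, *Myh4* and *Mylpf*) and in 13% of all promoters, and the general E-box CANNTG, which contains CAGCTG, for 5 members and in 66.2%. The M-CAT motif CATTCC was found for 2 members (*Myh1* and *Myh4*) and in 12.6% of promoters. CTA and TAG parted by any 4 bases were found for 0 members and in 3.2%. This pattern is looser than the MEF2 motif in its middle but stricter at its ends. Sites with TTA at the start or TAA at the end were not searched, such as TTATTTATAG in the *Myh1* and *Myh4* windows. The count therefore does not show that MEF2 sites are absent. A pattern looser than the CArG motif, CC and GG parted by any 6 bases, was found for 6 members and in 67.1%. These counts use the whole 250 bases before the start.

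The tissues differed widely in the level of these genes. The sum of the 10 members was 2915 FPKM in WT eyes and 1263 FPKM in WT heart, of which *Ckm* alone gave 1144 FPKM in heart. It was 47.9 FPKM in WT prostate, 12.0 in spleen, 9.66 in testes, 4.24 in MEFs and 1.92 in liver. All 10 members reached 1 FPKM in heart and in eyes, 3 in prostate, spleen and testes, and 1 in MEFs and liver. Without a spread between mice, neighbours in this order cannot be separated from each other.

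In heart, 9 of the 10 members were lower in the knockout and none was higher. Of all 12864 genes with at least 1 FPKM, 1.76% were lower and 0.925% higher. The median change of the members was -4.27, against 0.03 over all these genes. Without *Ckm*, the sum of the other 9 was 119 FPKM in WT heart and 7.26 FPKM in knockout heart, or 6.09% of WT. In eyes the same 9 genes had summed levels of 2667 FPKM in WT and 4744 FPKM in knockout.

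**Figure D1:**
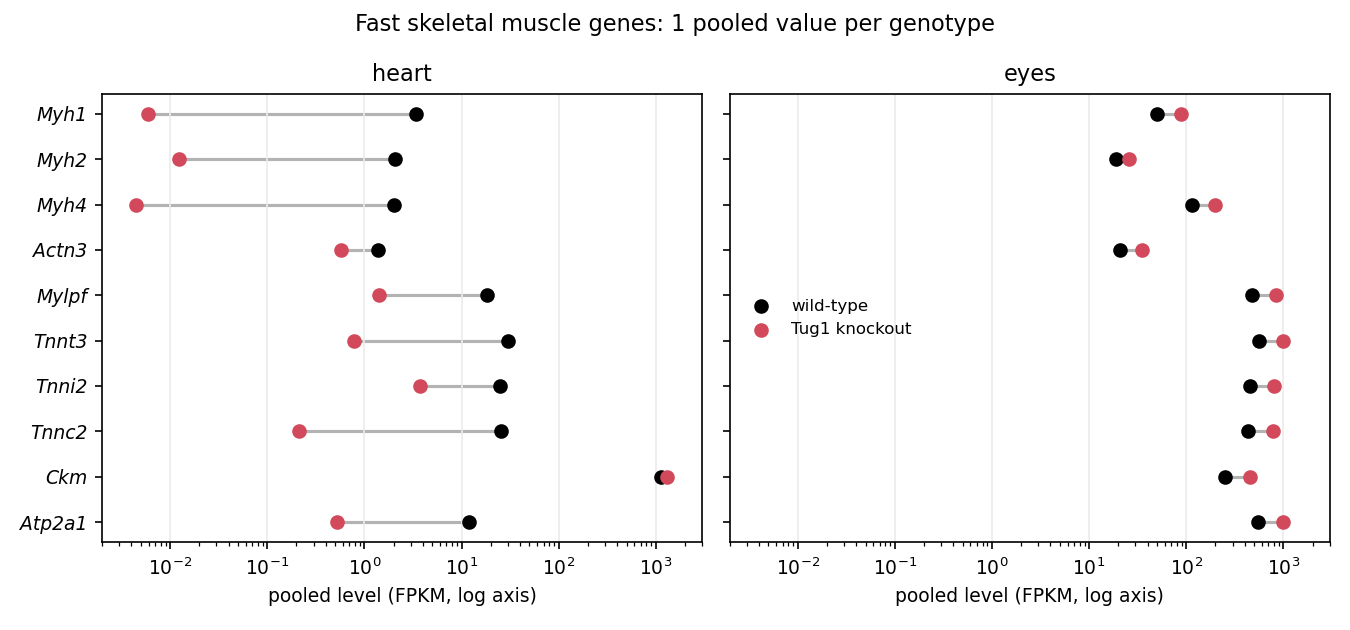
Pooled level in FPKM on a log axis of the 10 members in heart (left) and eyes (right), with black points for wild-type and red points for *Tug1* knockout, 1 value per genotype and no error bar. In heart the knockout points lie to the left for 9 genes and *Ckm* is at 1144 and 1294 FPKM, while in eyes every knockout point lies to the right.

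The fast myosin heavy chains, the motors of the thick filament, were present at low levels in WT heart and near 0 in knockout heart. *Myh1*, the IIX chain, was at 3.40 FPKM in WT and 0.00586 FPKM in knockout heart. *Myh2*, the IIA chain, was at 2.08 and 0.0125 FPKM, and *Myh4*, the IIB chain, at 2.03 and 0.00442 FPKM. Their changes were -5.05, -4.27 and -4.35, which placed them at ranks 12, 15 and 14 from the lowest of 12864 genes. The heart's own motor gene *Myh6* was at 2644 FPKM in WT and 1985 FPKM in knockout, so the fast chains were a small part of the heavy chain mRNA in both genotypes. Below 0.1 FPKM the size of a change depends on the pseudocount, and with a pseudocount of 1 FPKM the median change of the members was -2.29.

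In eyes the same chains were higher in the knockout. *Myh1* was at 49.5 FPKM in WT and 88.0 FPKM in knockout eyes, a ratio of 1.78. *Myh4* was at 116 and 197 FPKM, a ratio of 1.70. *Myh2* was at 19.1 and 25.6 FPKM, and its ratio of 1.34 made it the 1 member that did not pass 1.5-fold. Of all 14453 genes in eyes, 2.79% were higher and 0.948% lower, and of the members 9 were higher and none was lower. The median change was 0.83 for the members and -0.02 over all genes, and the highest ratio of a member was 1.83.

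The chains also stood in different proportions in the 2 organs. In WT eyes *Myh4* made up 62.8% of their summed FPKM, *Myh1* 26.8% and *Myh2* 10.4%, and in knockout eyes 63.4%, 28.3% and 8.25%. In WT heart *Myh1* was the most abundant with 45.3%, followed by *Myh2* with 27.7% and *Myh4* with 27.0%. The knockout heart summed to 0.0228 FPKM, too little for shares to be read. The order of the chains in WT heart was thus not that of the eyes in either genotype, although no spread between mice is at hand to test it.

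**Figure D2:**
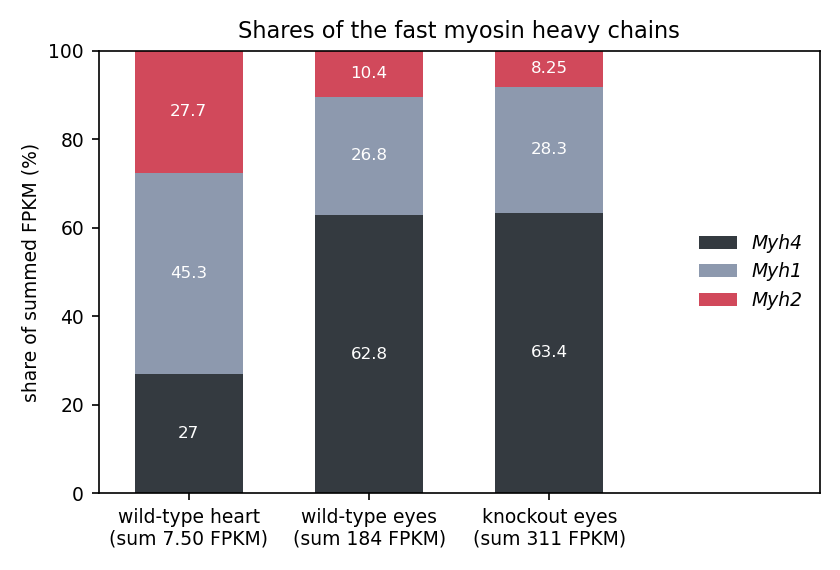
Share in percent of the summed FPKM of *Myh4*, *Myh1* and *Myh2* that each contributes in wild-type heart, wild-type eyes and knockout eyes, with the summed level under each bar. *Myh4* takes 62.8% and 63.4% in the eyes and 27.0% in wild-type heart, where *Myh1* is highest at 45.3%.

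The transcripts of these chains are similar enough that reads can be shared. Of all windows of 1 read length along the annotated transcript, 9.51% in *Myh1*, 8.91% in *Myh2* and 3.74% in *Myh4* occur exactly in another of 8 myosin heavy chain genes (these and *Myh3*, *Myh6*, *Myh7*, *Myh8* and *Myh13*). None of these windows was shared with the cardiac chains *Myh6* and *Myh7*. The antisense transcript *Myhas*, which overlaps *Myh1*, was at 1.34 FPKM in WT heart and listed at 0 in knockout heart, and at 18.0 and 32.3 FPKM in eyes. The antisense gene *9430073C21Rik*, which overlaps *Myh2*, was at 0.177 FPKM in WT heart and listed at 0 in knockout, with 1.64 and 1.76 FPKM in eyes. The library kit does not keep the strand, so reads of a gene and its antisense partner cannot be told apart.

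*Mylpf*, the regulatory light chain of fast myosin (chr7:127208890-127214298, plus strand), was at 18.2 FPKM in WT heart and 1.43 FPKM in knockout heart, a change of -3.58. In eyes it was at 470 and 837 FPKM, a ratio of 1.78. It was the one member with at least 1 FPKM in every tissue and genotype.

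The fast troponin subunits, which make the thin filament respond to calcium, were the most abundant members in WT heart after *Ckm*. *Tnnt3*, the subunit that anchors troponin to tropomyosin (chr7:142498836-142516009, plus strand), was at 30.3 FPKM in WT and 0.786 FPKM in knockout heart, 38.6 times lower. *Tnnc2*, the calcium sensor (chr2:164777161-164779967, minus strand), was at 25.2 and 0.214 FPKM, 118 times lower and at rank 7 from the lowest of all genes. *Tnni2*, the inhibitory subunit (chr7:142441808-142444410, plus strand), was at 24.8 and 3.70 FPKM, 6.70 times lower. In WT heart the subunits were thus within 24.8 to 30.3 FPKM of each other, and in knockout heart they lay between 0.214 and 3.70 FPKM.

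In eyes the troponins moved by nearly the same ratio. *Tnnt3* was at 556 FPKM in WT and 1002 FPKM in knockout eyes, a change of 0.85 on the log2 scale. *Tnni2* was at 448 and 791 FPKM, a ratio of 1.76, and *Tnnc2* at 437 and 784 FPKM, a ratio of 1.79. The level in knockout heart that remained for *Tnni2* was the highest of the 9 genes other than *Ckm*. *Prr33*, which overlaps *Tnnt3* on the other strand, was at 8.87 FPKM in WT and 10.9 FPKM in knockout heart and did not follow it there. *Ube2c*, which overlaps *Tnnc2*, was at 6.54 and 5.09 FPKM in heart and at 1.85 and 1.71 FPKM in eyes.

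*Actn3*, the alpha-actinin of the fast-fibre Z-disc (chr19:4861216-4877909, minus strand), was at 1.38 FPKM in WT and 0.581 FPKM in knockout heart. Its change of -1.12 was the smallest of the 9 that were lower. In eyes *Actn3* was at 21.0 and 34.8 FPKM, a ratio of 1.66. *Atp2a1*, the SERCA1 pump that returns calcium to the reticulum of fast fibres (chr7:126445858-126463108, minus strand), was at 11.8 FPKM in WT and 0.523 FPKM in knockout heart, 22.6 times lower. In eyes *Atp2a1* was at 550 and 984 FPKM, a ratio of 1.79, with a WT level second to that of *Tnnt3*.

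*Ckm*, the muscle creatine kinase that buffers ATP (chr7:19404776-19422841, plus strand), is a gene of heart as well as of skeletal muscle, and it was the exception in heart. It was at 1144 FPKM in WT and 1294 FPKM in knockout heart, a change of 0.18. In eyes, where *Ckm* was at 248 FPKM in WT and 455 FPKM in knockout, its ratio of 1.83 was the highest of the members. The WT heart level of *Ckm* was 461% of its WT eye level, whereas those of the other 9 members lay between 1.75% (*Myh4*) and 10.9% (*Myh2*) of theirs. The antisense gene *A930016O22Rik*, which overlaps *Ckm*, was at 169 and 184 FPKM in heart and at 40.2 and 68.1 FPKM in eyes.

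In bulk tissue, fewer cells of a type and less RNA per cell cannot be told apart, and this holds for every difference given here. In both genotypes, eyes had the highest level of all 7 tissues for each of the 9 members other than *Ckm*.

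**Figure D3:**
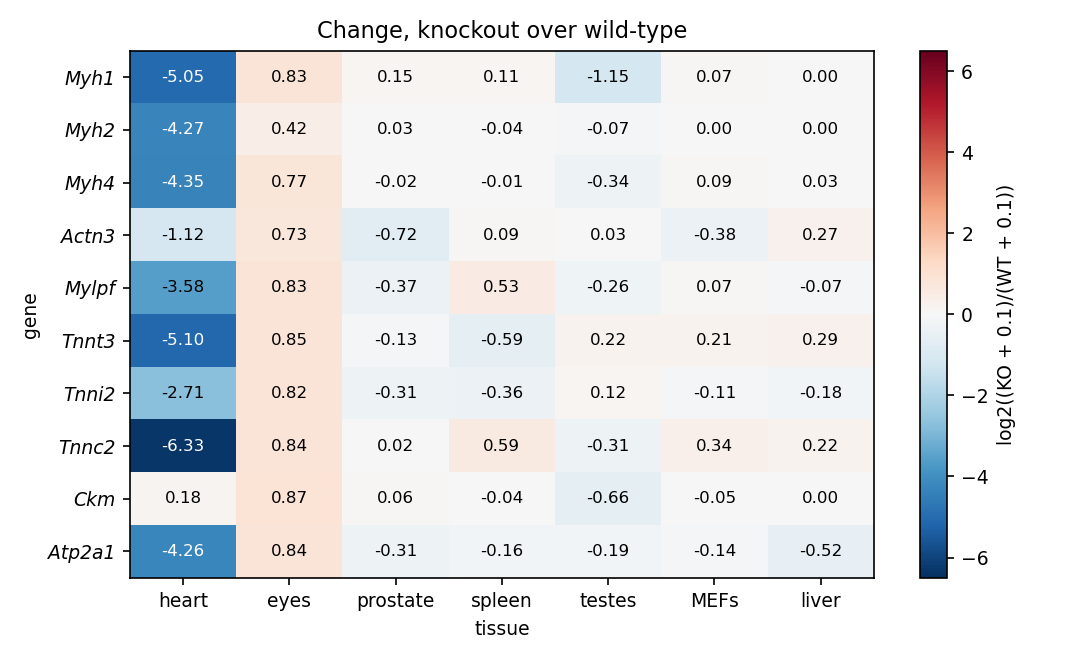
Log2((KO + 0.1)/(WT + 0.1)) of pooled FPKM for the 10 members (rows) in 7 tissues (columns), with the value printed in each cell and colour from blue (lower in knockout) to red (higher). The heart column runs from -6.33 to 0.18 and the eyes column from 0.42 to 0.87, and the lowest value elsewhere is -1.15, for *Myh1* in testes.

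Outside heart and eyes most members were at or near 0, and few passed the limit. In prostate 1 member was lower and 0 were higher, with 0.793% of all genes lower and 2.76% higher: *Actn3* was at 0.599 FPKM in WT and 0.325 FPKM in knockout. *Tnnc2*, the highest member there, was at 38.6 and 39.1 FPKM, and *Ckm* at 5.52 and 5.74 FPKM. Prostate was thus a tissue with a sizeable level of 1 fast troponin and next to none of its partners, since *Tnnt3* was at 0.220 and *Tnni2* at 0.268 FPKM in WT.

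In spleen 1 member was higher and 1 lower, where 5.15% of all genes were higher and 1.27% lower. *Tnnc2*, the member that was higher, was at 0.0253 FPKM in WT and 0.0889 FPKM in knockout, and *Tnnt3*, the lower one, at 1.37 and 0.880 FPKM. *Mylpf*, the highest member in spleen, was at 5.27 and 7.65 FPKM, and *Tnni2* at 4.70 and 3.63 FPKM, both inside the limit. In testes 2 members were lower and 0 were higher, with 0.961% of all genes lower and 1.36% higher. These were *Myh1*, at 0.566 and 0.199 FPKM, and *Ckm*, at 0.569 and 0.324 FPKM. *Actn3*, the highest member in testes, was at 4.37 FPKM in WT and 4.48 FPKM in knockout, above its WT heart level. In MEFs 0 members passed in either direction, with 1.15% of all genes higher and 2.5% lower, and *Mylpf*, the one member above 1 FPKM, was at 2.07 and 2.18 FPKM. In liver 0 members passed, with 2.8% of all genes higher and 2.47% lower. *Mylpf* was at 1.65 and 1.56 FPKM there, and 6 members were listed at 0 in WT and 3 in knockout liver, where an exact 0 can also stand for an estimate that was not made. Of the 5 members that passed in these tissues, *Tnnt3* in spleen alone had at least 1 FPKM in either genotype. Among all genes with a value above 0, 2.17% were lower in prostate and 2.27% in testes. For spleen these shares were 4.42% higher and 2.47% lower.

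Other genes of the muscle fibre were counted in lists, which also hold genes under 1 FPKM. Among all genes with at least 1 FPKM 1.76% were lower in heart and 2.79% higher in eyes, and among all genes with a value above 0 these shares were 3.53% and 2.83%. In heart, 7 of 30 further fast-fibre and adult skeletal muscle genes were lower and 0 higher, with a median change of -0.02, and 4 of the 7 had at least 1 FPKM. The list divided by how much of a gene the knockout heart contains. For 4 genes (*Pvalb*, *Ryr1*, *Myoz1* and *Ampd1*) the knockout heart level was under 1% of the knockout eye level, and all 4 were lower, with a median of -2.47. For 10 genes it was between 1% and 100%, and 3 of these were lower. For the 16 genes that were higher in knockout heart than in knockout eyes, 0 passed in heart, with changes from -0.25 to 0.25. Because the knockout heart level enters both the division and the change, this is a description of the list and no test.

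*Pvalb*, the calcium buffer of fast fibres, was at 5.97 FPKM in WT and 0.821 FPKM in knockout heart, and at 262 and 465 FPKM in eyes. *Myoz1*, a Z-disc protein of fast fibres, was at 1.60 and 0.266 FPKM in heart and at 47.2 and 83.3 FPKM in eyes. *Acta1*, skeletal actin, which heart also makes, was at 142 and 106 FPKM in heart, inside the limit, and at 276 and 551 FPKM in eyes. *Mb*, myoglobin, the oxygen store of heart and oxidative fibres, was at 14533 and 14810 FPKM in heart and at 416 and 768 FPKM in eyes. In eyes, 27 of the 30 genes were higher and 0 lower, with a median of 0.76, and the 3 inside the limit (*Pygm*, *Cacng1* and *Sln*) had changes of 0.52, 0.53 and 0.40.

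Slow-fibre genes were inside the limit in heart in 12 of 13 cases. The 1 that was lower was *Mybpc1*, slow myosin-binding protein C, at 2.07 FPKM in WT and 0.137 FPKM in knockout heart. The list also holds abundant heart genes, such as *Myl2*, at 14249 and 14716 FPKM in heart, and *Tnnc1*, at 3893 and 3969 FPKM. It was not divided by heart level, so the count does not show whether RNA of slow skeletal fibres differed. In eyes 7 of the 13 were higher, with a median of 0.63. Of 7 genes listed as extraocular, embryonic or neonatal myosins, 0 passed in heart and 2 were higher in eyes. These were *Myh13*, the superfast chain of extraocular muscle, at 27.7 and 49.4 FPKM, and the neonatal *Myh8* at 4.16 and 7.18 FPKM. The list also holds *Myh14*, *Myh7b* and the light chain gene *Myl4*, the 3 with at least 1 FPKM in heart. *Myh13*, *Myh3*, *Myh8* and *Myh15* were at 0.00399 to 0.0623 FPKM in WT heart, too low for a change there to be read. *Myh13* was at 0.0190 FPKM in WT heart, whereas *Myh1*, at 49.5 FPKM in WT eyes, was at 3.40 FPKM in WT heart. The embryonic *Myh3*, at 24.4 and 27.2 FPKM in eyes, and *Myh15*, another chain of extraocular muscle, at 16.9 and 16.7 FPKM, stayed inside the limit. Of 15 muscle regulatory, satellite cell and neuromuscular junction genes, 1 was lower in heart, the regulatory factor *Myf6* at 0.129 and 0.00698 FPKM. In eyes 8 of these 15 were higher, 5 of them with at least 1 FPKM, *Myf6* being at 5.05 and 9.15 FPKM.

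**Figure D4:**
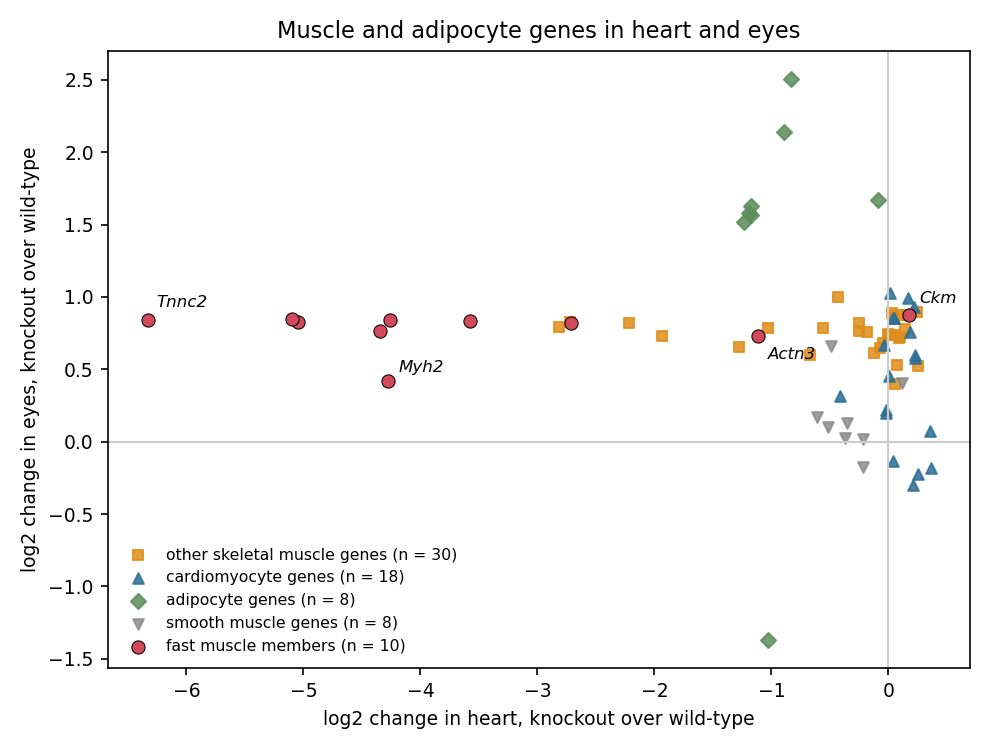
Log2 change of knockout over wild-type in heart (x axis) and in eyes (y axis), 1 point per gene, for the 10 members in red and for lists of other skeletal muscle, cardiomyocyte, adipocyte and smooth muscle genes. Members other than *Ckm* lie far to the left and above 0, *Ckm* lies among the cardiomyocyte genes at 0.18 and 0.87, and 7 of 8 adipocyte genes lie above the muscle genes in eyes.

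Markers of other cell types were read beside these results, with the whole list in each case and against the same shares of all genes. In heart, 0 of 18 cardiomyocyte genes passed in either direction, with summed levels of 51187 FPKM in WT and 52576 FPKM in knockout. Of 8 smooth muscle genes 1 was lower past the limit (*Cnn1*), with a median of -0.36 and sums of 246 and 204 FPKM. Only 1 of these 8 genes had a knockout level above its WT level. Of 8 adipocyte genes 7 were lower, with a median of -1.10 and sums of 1552 and 1394 FPKM, most of it *Fabp4*, at 1392 and 1311 FPKM. *Adipoq*, adiponectin, was at 21.0 and 9.23 FPKM. A list of 10 genes of airway and lung epithelium, chosen after the values had been seen, summed to 33.7 FPKM in WT and 0.569 FPKM in knockout heart, with 5 genes lower. In eyes this list summed to 1.24 and 2.05 FPKM, with 2 genes higher. *Scgb1a1*, the secretoglobin of airway club cells, was at 21.0 FPKM in WT and 0.113 FPKM in knockout heart, and *Bpifa1*, a secreted protein of the upper airways, at 9.20 and 0.0127 FPKM. The alveolar surfactant genes *Sftpa1*, *Sftpb*, *Sftpc* and *Sftpd* were at 0.0301 to 0.230 FPKM in WT heart. The 5 airway genes that were lower thus went in the direction of the fast muscle genes in heart, and the others stayed inside the limit. The median change of the airway list in eyes was 0.09, against 0.83 for the members. The part of the airway genes in the result was not tested. Among the 30 genes with the lowest changes in heart, 8 were members and 4 were airway genes (*Scgb1a1*, *Bpifa1*, *Scgb3a2* and *Scgb3a1*).

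In eyes, 7 of the 8 adipocyte genes were higher and *Ucp1* was lower, with a median of 1.60 and sums of 117 FPKM in WT and 428 FPKM in knockout. *Adipoq* was at 7.31 and 21.8 FPKM. The lens and retinal pigment epithelium lists differed less: 0 of 9 and 0 of 6 of their genes passed in either direction. Their summed levels were 19687 FPKM in WT and 19914 FPKM in knockout for lens, and 886 and 895 FPKM for retinal pigment epithelium. Of 7 genes of the corneal and surface epithelium 3 were lower and 0 higher, where 0.948% of all genes with at least 1 FPKM were lower in eyes, with sums of 1500 and 1006 FPKM. Of 8 smooth muscle genes 1 was higher, with sums of 123 and 128 FPKM. Of the 18 cardiomyocyte genes 8 were higher in eyes, among them *Actc1*, at 56.6 and 108 FPKM, and *Ckmt2*, at 124 and 247 FPKM, which skeletal muscle also makes, while *Myh6* was at 0.0561 and 0.0939 FPKM. The part of these cell types in the result was not tested. In heart, the corneal and retinal pigment epithelium lists summed to 1.35 and 0.906 FPKM in WT, and 0 of 7 and 1 of 6 of their genes passed the limit. Of the 9 lens genes 1 was lower in heart.

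Set side by side, the WT and knockout differences in FPKM were unlike in size between the organs. The amount by which WT heart exceeded knockout heart ranged from 0.795 FPKM (*Actn3*) to 29.5 FPKM (*Tnnt3*) among the 9 members, and the amount by which knockout eyes exceeded WT eyes from 6.52 FPKM (*Myh2*) to 446 FPKM (*Tnnt3*). *Tnnt3* thus had the highest difference in both. The heart and eye comparisons come from separate samples, and the table does not link tissues to mice.

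Genes whose pattern was most like that of the members were found among 12082 genes with at least 1 FPKM in heart and in eyes. By the Euclidean distance of the 7 tissue changes from the members' median changes, the nearest was *Gm12300*, the name in the table for the antisense transcript *Myhas*, at a distance of 0.778. It was followed by *Mybpc1* at 1.48, *Pvalb* at 1.55 and *Myoz1* at 2.17. The next 6 (*Scd1*, *Alox15*, *Osbp2*, *Nnat*, *Fabp7* and *Igj*) lay at 2.69 to 3.05. By the correlation of log2(FPKM + 0.1) with the members' mean over the 14 group values, *Pvalb* had a Pearson r of 0.984, *Myoz1* of 0.973 and *Gm12300* of 0.969. The other 7 genes, with r down to 0.959 (*Slurp1*, *Sv2a*, *Slc1a1*, *S100b*, *A330094K24Rik*, *Crybb1* and *Lypd2*), had higher levels in WT eyes than in WT heart, and 0 of them were higher in knockout eyes past the limit. The 14 values share tissues and are pooled over mice, so these are descriptions.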

How the data were processed

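RNA was sequenced from 42 samples as paired-end reads of poly(A)-selected TruSeq libraries, which do not keep the strand. The submitters' processing notes list CASAVA 1.8.2, TopHat2, Cuffdiff and the mm10 build. The paper's methods describe another route, through STAR, featureCounts and DESeq2, for the authors' own calls. The deposited table gives 1 FPKM value per genotype and tissue, a unit read from the table's layout, since the header does not name one. The authors combined the replicates, and the depth of the samples is unknown, since the table holds no counts. Its columns of the authors' fold changes, test statistics, p-values and q-values were not used. One marker gene of the eye and the list that holds it are not reported here. A further tissue of the table has no sample in the labels and was not analysed here.

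Changes were computed as log2((KO + 0.1)/(WT + 0.1)), and a gene was counted past 1.5-fold. No test was made, and counts with the main settings were read beside the shares of all genes past the same limit. The members and lists were chosen with earlier results of these data known, and the airway list after its values had been seen. Named genes are the members, the most abundant or defining genes of each list, and the 10 nearest by each measure of pattern. A comparison of protein sequences was replaced by shared windows of 1 read length of GENCODE vM21 transcripts. Alternatives were pseudocounts of 1 and 0.01 FPKM, fold limits of 2 and 4, rescaling to equal totals, centring on the median of all genes and a minimum of 1 FPKM. The computing and counting of changes were tested on copies of the WT heart and eye values with planted folds, and the other steps were not. Python 3.11.15, numpy 2.4.6, pandas 2.3.3 and matplotlib 3.10.9 were used.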

Additional observations from a re-analysis of the deposited data

How the results depend on the processing

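No paired analysis was possible because the table holds 1 pooled value per genotype and tissue, and for the same reason no sample could be left out and no replicate error given; the depth behind each value, and so the precision of values near 0, is unknown. No member's change past 1.5-fold turned direction under the alternatives run. Inside the limit 3 did: *Mylpf* in liver went from -0.07 to 0.07 with groups rescaled, and, when centred, *Myh4* went from -0.02 to 0.02 in prostate and from -0.0064 to 0.012 in spleen. The count of members lower in heart was 9 under each alternative except a fold limit of 4, which left 8. The median change in heart was -2.29 with a pseudocount of 1 FPKM, -4.86 with 0.01 FPKM, -4.65 with groups rescaled to the same total and -4.29 when centred on the median of all genes. The median in eyes was 0.80 rescaled and 0.86 centred. In eyes 0 members were higher past a fold limit of 2 or of 4, where 0.595% and 0.125% of all genes were; in heart 0.591% and 0.194% of all genes were lower past these limits.

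The counts in the other tissues rest on low values. With a pseudocount of 1 FPKM, 0 members were lower in prostate, spleen and testes and 0 higher in spleen. With 0.01 FPKM, 2 members were lower and 1 higher in prostate, 1 was higher in MEFs, and 3 were higher and 1 lower in liver. No share of all genes is at hand for this pseudocount, so these counts have no background and nothing is concluded from them. With at least 1 FPKM required, 0 members were lower in prostate and testes and 0 higher in spleen. Past a fold limit of 2, 0 were lower in prostate, and 0 were higher and 0 lower in spleen. In testes 1 was lower past this limit, where 0.518% of all genes with a value above 0 were. Past 4, 0 were lower in prostate, spleen and testes and 0 higher in spleen. Centred on the median of all genes, 0 were lower in spleen.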
